A study of Homo sapiens with 6 samples.

Results

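HepG2 is a human liver tumour cell line that keeps part of the gene programme of hepatocytes. Messenger RNA was sequenced from HepG2 cells grown in a bioreactor of interwoven hollow fibers (3 samples, 3D) and on flat 6-well plates (3 samples, 2D), and the question is which genes the culture form shifts. All samples were of passages 7 to 9, and the labels list no engineered genetic change and no drug for either group. The bioreactor was fed EMEM mixed with DMEM in equal volumes, containing 10% serum. This medium was recirculated at 23.5 mL/min with a feed of 2 mL/hour and gas at 200 mL/min. Plate cells received EMEM renewed every 2 days after seeding at 200000 cells per square centimetre. The serum content of the plate medium is not given in the sources used here. Culture form, medium and feeding differed together and cannot be told apart. The genes described are 9 hepatic carriers, listed by symbol: SLC22A3, SLC22A7, SLC22A9, SLC10A1, SLCO1B1, SLCO1B3, SLCO2B1, SLC47A1 and SLC51A. Of these, 8 were among the 19846 genes of the count table, 6 passed the low-count filter, and SLCO1B1 is not analysed here.

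Hepatocytes clear drugs, hormones and bile acids from blood with carriers in the basolateral membrane. Organic anions enter through members of the SLC22A and SLCO families, organic cations through other SLC22A members, and conjugated bile acids mainly through SLC10A1, the sodium-coupled carrier NTCP, together with SLCO1B1 and SLCO1B3. SLC47A1 and SLC51A carry substrates out of the cell: SLC47A1 (MATE1) exchanges organic cations for protons at the bile canaliculus, and SLC51A is the alpha subunit of the organic solute transporter, which returns bile acids to blood and needs its beta subunit, SLC51B. The set therefore holds uptake carriers and exporters.

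RefSeq promoter windows (GRCh38.p14, 250 bases before to 50 after a gene start) were held for 6 of the 9 carriers. The windows below belong to the carriers that rose in 3D (SLC22A7 and SLC51A) and to the carriers that were close to silent in both cultures (SLC10A1 and SLCO1B3), and each is written 5′ to 3′ on the strand of its gene. Capitals mark matches, on either strand, to any of 4 letter strings: AGGTCA (a nuclear receptor half-site), TGTTTAC (a forkhead site), ACGTG (the core of a hypoxia response element) and CAAAGTCCA (an HNF4 site). No match overlapped another. The windows lie at chr6:43298010-43298309 for SLC22A7, chr3:196216284-196216583 for SLC51A, chr14:69797192-69797491 (minus strand) for SLC10A1 and chr12:20810455-20810754 for SLCO1B3.
SLC22A7: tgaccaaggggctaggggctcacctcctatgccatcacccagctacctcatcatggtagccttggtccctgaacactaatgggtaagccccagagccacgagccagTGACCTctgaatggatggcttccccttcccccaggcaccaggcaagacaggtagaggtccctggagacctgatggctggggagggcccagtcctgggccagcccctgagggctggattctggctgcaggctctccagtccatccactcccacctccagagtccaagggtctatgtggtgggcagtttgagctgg
SLC51A: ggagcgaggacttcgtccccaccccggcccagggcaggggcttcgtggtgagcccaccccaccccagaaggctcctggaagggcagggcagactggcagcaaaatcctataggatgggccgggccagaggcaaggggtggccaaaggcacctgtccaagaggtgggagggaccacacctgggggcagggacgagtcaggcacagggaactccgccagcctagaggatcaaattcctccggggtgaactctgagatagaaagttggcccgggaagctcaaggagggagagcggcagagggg
SLC10A1: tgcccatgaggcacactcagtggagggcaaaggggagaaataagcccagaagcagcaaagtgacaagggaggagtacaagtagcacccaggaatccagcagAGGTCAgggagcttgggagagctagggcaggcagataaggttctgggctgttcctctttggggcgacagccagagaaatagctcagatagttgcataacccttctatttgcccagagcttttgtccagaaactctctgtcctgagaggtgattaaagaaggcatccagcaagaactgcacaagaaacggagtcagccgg
SLCO1B3: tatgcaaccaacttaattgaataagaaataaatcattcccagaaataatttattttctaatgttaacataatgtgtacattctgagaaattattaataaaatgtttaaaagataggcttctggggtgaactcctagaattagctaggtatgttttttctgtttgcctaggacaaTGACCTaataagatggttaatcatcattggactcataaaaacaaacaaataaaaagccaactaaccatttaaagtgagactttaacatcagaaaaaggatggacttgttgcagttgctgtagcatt

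The SLC22A7 window held 1 AGGTCA match on the opposite strand, 144 bases before the start, and the SLC51A window held 0 matches to any of the strings. The near-silent carriers SLC10A1 and SLCO1B3 each held 1 AGGTCA match as well. Of the windows not printed, 1 of 2 for SLCO2B1, which fell, held a CAAAGTCCA match on the opposite strand, 69 bases before the start. AGGTCA was present in 13.8% of 35116 promoter windows, ACGTG in 21.4%, TGTTTAC in 3.42% and CAAAGTCCA in 0.384%. The windows depend on the start chosen: the RefSeq start of SLC22A7 lies 2566 bases, and that of SLC51A 5047 bases, downstream of the first base of the gene in the count table. For SLCO2B1, the start of the window with the match lies 59269 bases downstream.

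In 3D culture 2 carriers rose (SLC22A7 and SLC51A), 3 fell (SLC22A9, SLC22A3 and SLCO2B1) and SLC47A1 was not called. SLC22A7 had the largest difference of the 6, at 19.6-fold, and the decreases lay between 1.36-fold and 2.66-fold. A gene was called at a Benjamini-Hochberg adjusted p under 0.05 in edgeR's quasi-likelihood test, which called 36.6% of the 15314 genes tested (19.0% higher and 17.6% lower). The 5 calls among 6 tested carriers cannot be read as an excess over that background, since the carriers were chosen with earlier results of these data known. The 3D and 2D values did not overlap for 5 of the 6, as was so for 50.5% of all genes tested. In bulk RNA, fewer cells with a transcript and less transcript per cell cannot be told apart.

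Library totals ranged from 9530795 to 15897621 counts in 3D and from 16270361 to 17943513 in 2D, so a floor of 3 counts equals 0.167 to 0.315 CPM (counts scaled to a common library size). The lowest total, 9530795 counts, was that of 3D replicate 1. Floors cover counting error only. All 11 hepatocyte markers examined passed the filter, and 2 were higher and 3 lower in 3D. Of 5 tested bile duct markers, 4 were higher and 1 lower, and the summed level of the 7 analysed was 1147 to 1411 CPM in 3D and 754.2 to 968.2 CPM in 2D. Summed fibroblast markers came to 25.5 to 43.0 CPM in 3D, against 35.5 to 45.0 CPM in 2D (1 of 3 tested higher, 2 lower), and summed endothelial markers to 3.02 to 6.14 CPM in 3D, against 2.05 to 4.85 CPM in 2D (0 of 3 called). Blood and macrophage markers, mostly LYZ, summed to 435.9 to 1015 CPM in 3D and 979.6 to 1476 CPM in 2D (1 of 3 higher). The part of these shifts in the carriers' levels was not tested. Whether replicates are separate cultures is not stated in the labels; the p-values therefore reflect only sample-to-sample spread, which may be technical.

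**Figure D1:**
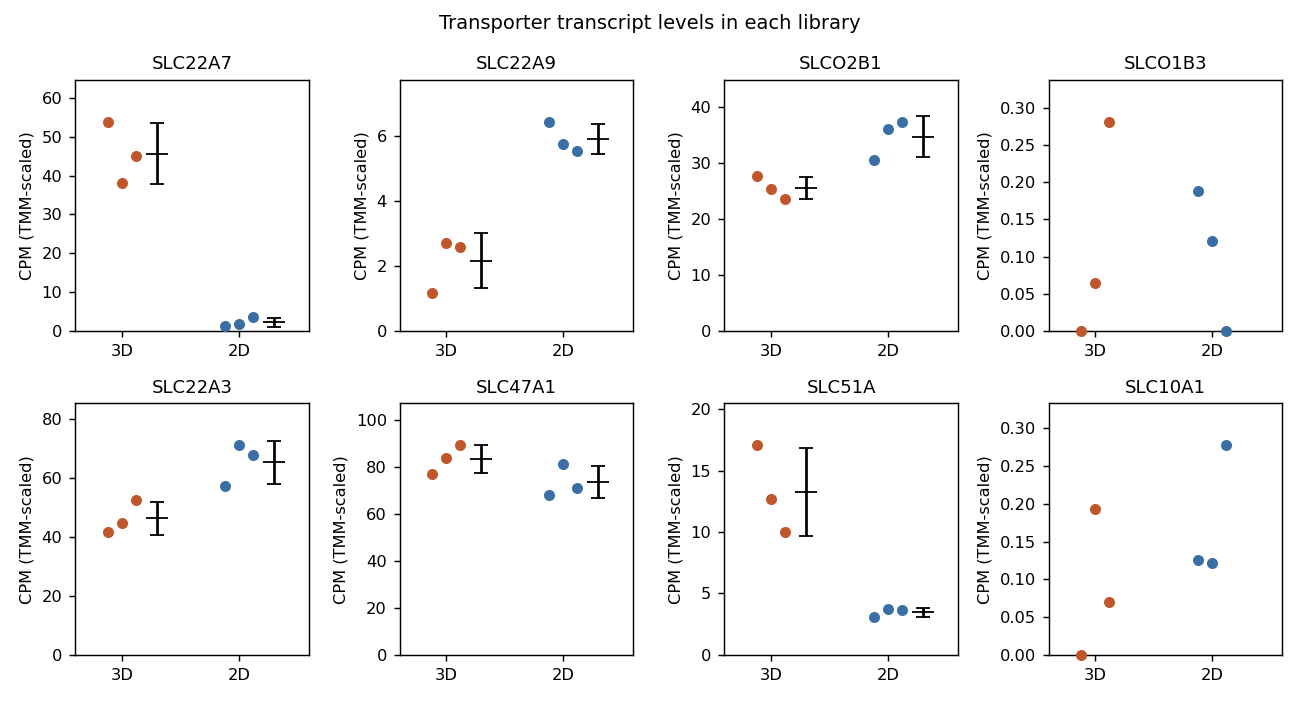
Level of each carrier (CPM, TMM-scaled, axes from 0) in the 3D and 2D libraries; points are libraries, and the bar beside them is the mean with its SD (n = 3), left out for SLCO1B3 and SLC10A1, which are near the detection floor. The 3D points lie above all 2D points for SLC22A7 and SLC51A and below them for SLC22A9, SLC22A3 and SLCO2B1.

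SLC22A7 (chromosome 6, 43295694 to 43305539, plus strand, hg38) encodes OAT2, a carrier of small organic anions and cyclic nucleotides. Its counts were 543, 588 and 642 in 3D replicates 1 to 3, against 22, 31 and 65 in 2D replicates 1 to 3. Scaled to library size, it stood at 53.9, 38.0 and 45.1 CPM in 3D, against 1.38, 1.88 and 3.61 CPM in 2D. The groups are far apart, with 2D replicate 3 the highest plate library and 3D replicate 1 the highest bioreactor library. The mean was 45.7 ± 7.95 CPM in 3D and 2.29 ± 1.17 CPM in 2D (SD, n = 3 each). The log2 fold change was 4.29 (SE 0.29, edgeR adjusted p = 2.0e-05), placing the gene at rank 30 from the top of the 15314 genes tested. It was 4.03 to 4.79 when any 1 library was left out. SLC22A7 overlaps CRIP3 on the opposite strand, sharing 148 of its 3527 annotated exon bases. CRIP3 had 19, 11 and 14 counts in 3D and 9, 10 and 13 in 2D, so beside SLC22A7 it was small in 3D and not in 2D. The part of shared reads in the SLC22A7 values was not tested.

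SLC22A9 (chromosome 11, 63369789 to 63410295) encodes OAT7, a liver carrier of sulfated steroids. It went the other way: 1.19, 2.71 and 2.60 CPM in 3D, against 6.45, 5.76 and 5.55 CPM in 2D. Every 3D library lay below every 2D library, and 3D replicate 1 was lowest, with 12 counts. Its log2 fold change was −1.41 (SE 0.30, edgeR adjusted p = 0.00373), and −1.17 without 3D replicate 1 (edgeR adjusted p = 0.0040).

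SLCO2B1 (chromosome 11, 75100563 to 75206550), a broad-substrate organic anion carrier also known from the intestine, fell by less. It had 27.7, 25.5 and 23.6 CPM in 3D, against 30.6, 36.1 and 37.4 CPM in 2D. The groups did not overlap, but 3D replicate 1 and 2D replicate 1 were close to each other. The log2 fold change was −0.44 (SE 0.14, edgeR adjusted p = 0.0270). The call was lost without 2D replicate 2, 2D replicate 3 or 3D replicate 3, at edgeR adjusted p = 0.0832, 0.102 and 0.0750 and log2 fold changes of −0.43, −0.39 and −0.39.

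SLCO1B3 (chromosome 12, 20810702 to 20916912), the liver-specific OATP1B3, was close to silent. Its counts were 0, 1 and 4 in 3D, against 3, 2 and 0 in 2D. Most of these values are at or under the floor of 3 counts, so no difference was detectable at this depth. SLCO1B3 has a close paralogue in SLCO1B1, and how reads that match several genes were counted is not given in the sources used here.

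SLC22A3 (chromosome 6, 160348268 to 160452582), the organic cation carrier OCT3, which also takes up monoamines, was among the abundant members. It had 41.8, 44.8 and 52.5 CPM in 3D, against 57.2, 71.1 and 67.9 CPM in 2D. The groups did not overlap, with a gap smaller than the spread within 2D. The log2 fold change was −0.49 (SE 0.14, edgeR adjusted p = 0.0152). The call was lost without 2D replicate 2 (edgeR adjusted p = 0.0618, log2 −0.45), without 2D replicate 3 (0.0528, log2 −0.48), and without 2D replicate 2 and 3D replicate 1 together (0.0866, log2 −0.38).

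SLC47A1 (chromosome 17, 19495385 to 19579035) was the most abundant of the carriers and was not called. It had 77.1, 83.5 and 89.1 CPM in 3D, against 68.1, 81.4 and 71.0 CPM in 2D, and the groups overlapped. The log2 fold change was 0.18 (SE 0.12, edgeR adjusted p = 0.270), with a 95% interval of −0.09 to 0.45. An increase of more than 0.45 on the log2 scale lies outside that interval. A pseudogene and a small nucleolar RNA gene inside SLC47A1 had under 10 counts in every library.

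SLC10A1 (chromosome 14, 69775417 to 69797290, minus strand), the bile acid carrier NTCP, had 0, 3 and 1 counts in 3D, against 2, 2 and 5 in 2D. As for SLCO1B3, the values were too low to test. Fitted without a low-count filter, neither gene was called (edgeR adjusted p = 0.593 for SLC10A1 and 0.899 for SLCO1B3). With standard errors of 1.02 and 1.19 on the log2 scale, that fit cannot decide whether either gene differed. By their counts, the sodium-coupled bile acid carrier and the liver-specific OATP were at the detection limit in plates and bioreactor alike.

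SLC51A (chromosome 3, 196211487 to 196243179) rose. It had 17.1, 12.7 and 9.98 CPM in 3D, against 3.07, 3.70 and 3.66 CPM in 2D. All 3D libraries lay above all 2D libraries, with 3D replicate 1 highest. The log2 fold change was 1.92 (SE 0.23, edgeR adjusted p = 0.000183), a 3.78-fold difference, and it was 1.65 with transcript length and GC content corrected. SLC51A overlaps PCYT1A, on the opposite strand, in 389 of its 5293 annotated exon bases, and whether counting used strand is not given in the sources used here. PCYT1A averaged 43.3 ± 3.84 CPM in 3D, against 50.5 ± 2.72 CPM in 2D (SD, n = 3 each, edgeR adjusted p = 0.181). In counts, PCYT1A had 403, 735 and 602 in 3D and 807, 878 and 861 in 2D, against 142 to 196 for SLC51A in 3D and 49 to 66 in 2D. The part of shared reads in the SLC51A values was not tested.

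SLC51B, the obligate partner of SLC51A, was not called. It had 2.78, 5.49 and 8.65 CPM in 3D, against 10.7, 7.94 and 7.05 CPM in 2D (log2 fold change −0.58, SE 0.34, edgeR adjusted p = 0.207). The groups overlapped through 3D replicate 3, and without that library SLC51B was called lower (log2 −1.02, edgeR adjusted p = 0.0355). It was −0.29 on the log2 scale without 3D replicate 1 (edgeR adjusted p = 0.398) and −0.40 without 2D replicate 1 (0.476). SLC51A counts divided by SLC51B counts gave 6.14, 2.31 and 1.15 in 3D, against 0.287, 0.466 and 0.520 in 2D, a ratio chosen after the values were seen. All 3D ratios exceeded 1 and all 2D ratios lay under it. An exact two-sided permutation test on the log2 ratio gave p = 0.1. That is the smallest p this test can give for 3 against 3 libraries, so it cannot decide whether the ratio differs. In the bioreactor libraries SLC51A was highest where SLC51B was lowest.

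**Figure D2:**
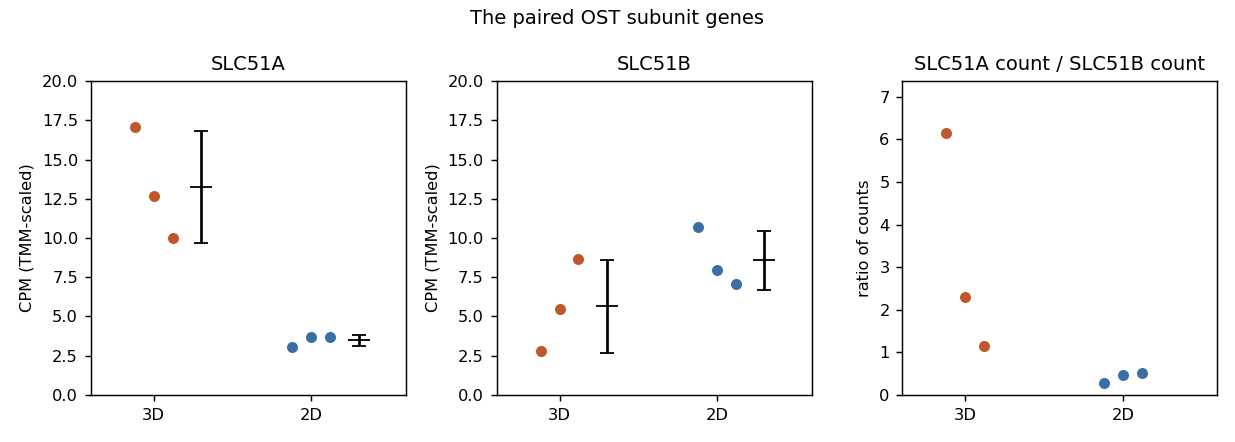
Levels of SLC51A and SLC51B (CPM, TMM-scaled, axes from 0 to the same top) and the ratio of their counts in the 3D and 2D libraries; points are libraries and bars the mean with its SD (n = 3), with no bar for the ratio. SLC51A is separated between cultures, SLC51B overlaps, and the ratio lies between 1.15 and 6.14 in 3D and between 0.287 and 0.520 in 2D.

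Levels of different genes were compared per kilobase of the main transcript in GENCODE release 29. That transcript holds 2555 bases for SLC22A7 and 1463 for SLC51A, whose annotated exons cover 3527 and 5293 bases. Ranks and shares per kilobase therefore depend on the transcript chosen. In 3D, SLC47A1 was first at 25.4 ± 1.83 CPM per kb, then SLC22A7 at 17.9 ± 3.11, SLC22A3 at 13.9 ± 1.66, SLC51A at 9.05 ± 2.44, SLCO2B1 at 5.69 ± 0.451 and SLC22A9 at 0.925 ± 0.362 CPM per kb (SD, n = 3). The ranges of SLC22A7 and SLC22A3 overlapped, and the other neighbours of these 6 did not. In 2D, SLC47A1 stood at 22.4 ± 2.12 CPM per kb, SLC22A3 at 19.5 ± 2.18, SLCO2B1 at 7.72 ± 0.811, SLC22A9 at 2.53 ± 0.201, SLC51A at 2.38 ± 0.242 and SLC22A7 at 0.896 ± 0.458 CPM per kb (SD, n = 3). Here the ranges of SLC47A1 and SLC22A3 overlapped, as did those of SLC22A9 and SLC51A. SLC22A7 was thus second of the 8 carriers in 3D and sixth in 2D.

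As a share of the summed level per kilobase of the 8 carriers, SLC22A7 made up 28.0, 21.4 and 23.9% in 3D, against 1.07, 1.23 and 2.49% in 2D. SLC22A3 made up 16.5, 19.3 and 21.2% in 3D, against 34.0, 35.5 and 35.8% in 2D. SLC51A made up 15.5, 12.5 and 9.24% in 3D, against 4.18, 4.22 and 4.42% in 2D. The sum itself was 69.3 to 75.4 CPM per kb in 3D and 50.2 to 59.9 CPM per kb in 2D. Shares of a sum depend on each other, so they are given as a description only.

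**Figure D3:**
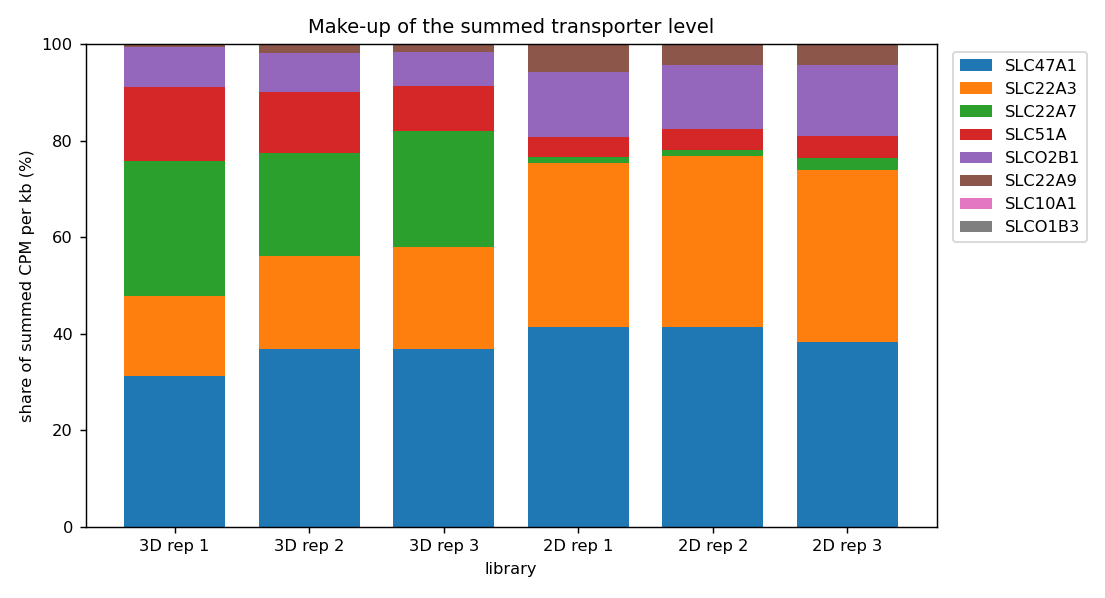
Stacked shares (percent of the summed CPM per kb of 8 carriers) in each 3D and 2D library, with one bar per library. SLC22A7 takes 21.4 to 28.0% of the 3D bars and 1.07 to 2.49% of the 2D bars, while SLC47A1 takes 31.2 to 36.8% in 3D and 38.2 to 41.4% in 2D.

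Of 36 listed relatives of the carriers in the SLC10, SLC22, SLCO, SLC47 and SLC51 families, 20 were in the table and 15 were tested; 2 rose, 3 fell and 10 were not called, a share called close to the 36.6% over all genes tested. Their median log2 fold change was −0.39, beside 0.02 over all genes tested. SLC22A15, a carrier of zwitterions, fell to 0.198, 0.129 and 0.0703 CPM in 3D, against 2.94, 1.58 and 1.67 CPM in 2D (edgeR adjusted p = 0.000369). Its 3D counts were 2, 2 and 1, under the floor of 3, so no fold is given. SLC22A11, the organic anion carrier OAT4, fell to 1.38 ± 0.700 CPM in 3D, against 3.21 ± 0.621 CPM in 2D (SD, n = 3 each). SLC22A23, an orphan member, fell to 80.1 ± 4.49 CPM in 3D, against 140.8 ± 10.3 CPM in 2D (SD, n = 3 each). SLC22A17, known as a lipocalin-2 receptor, rose to 1.71 ± 0.407 CPM in 3D, against 0.765 ± 0.191 CPM in 2D, and SLC22A31 rose to 121.8 ± 24.4 CPM in 3D, against 81.3 ± 2.13 CPM in 2D (SD, n = 3 each). With length and GC content corrected, neither of these last increases was called (edgeR adjusted p = 0.104 and 0.225). The SLC22A17 call was also lost without any single library other than 3D replicate 3 (edgeR adjusted p from 0.0624 to 0.146). The call of SLC22A11 was lost without 2D replicate 1, 2D replicate 2, 3D replicate 2 or 3D replicate 3 (edgeR adjusted p from 0.0689 to 0.0731).

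**Figure D4:**
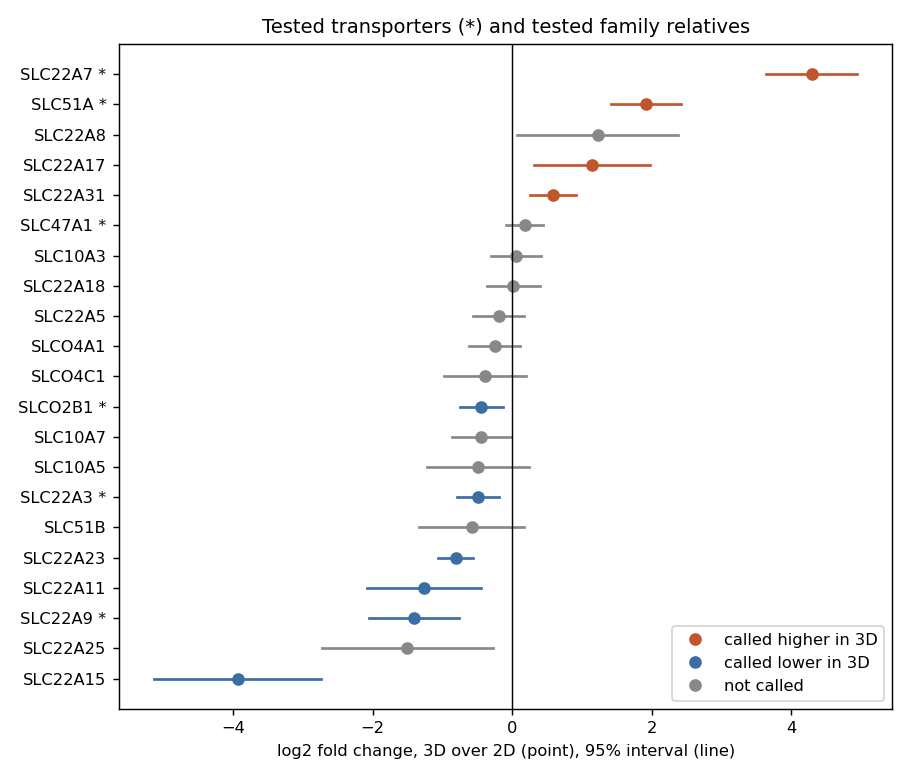
Log2 fold change of 3D over 2D (points) with its 95% interval (lines, from the edgeR fit) for the 6 tested carriers, marked with a star, and 15 tested relatives; colours give the call. SLC22A7 stands at 4.29 at the top, and SLC22A15, with 1 or 2 counts per 3D library, at the bottom, and most relatives lie within 1 of 0.

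A list of export pumps and lipid transporters of the hepatocyte surface is called export pumps for short. Of 11 tested, 1 rose and 4 fell, beside 19.0% higher and 17.6% lower over all genes tested. The median difference was −0.39 on the log2 scale. ABCB1, the multidrug exporter, had 41.7, 48.9 and 67.3 CPM in 3D, against 109.5, 146.5 and 106.0 CPM in 2D, with no overlap (log2 −1.19, SE 0.19). ABCG2, a drug and urate exporter, fell to 6.97 ± 0.689 CPM in 3D, against 13.7 ± 2.88 CPM in 2D, and ABCB4, the phospholipid exporter of bile, to 22.5 ± 2.01 CPM in 3D, against 38.3 ± 2.56 CPM in 2D (SD, n = 3 each). ABCC3, a basolateral exporter of conjugates, rose to 77.5 ± 21.5 CPM in 3D, against 48.9 ± 9.22 CPM in 2D (edgeR adjusted p = 0.0280), a call lost without 2D replicate 1 (0.104), 2D replicate 3 (0.0507) or 3D replicate 1 (0.0750). The canalicular bile acid pump ABCB11 is not analysed here.

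Of 13 tested bile acid synthesis genes, 5 rose and 0 fell, beside 19.0% higher and 17.6% lower over all genes tested. The list was chosen with earlier results of these data known, so no excess is read from this count. The median difference was 0.05 on the log2 scale. The number that rose was 3 or 4 when any single library was left out. HSD3B7, an early steroid-ring enzyme, was at 60.7, 38.0 and 51.3 CPM in 3D, against 21.1, 20.9 and 26.5 CPM in 2D (log2 1.12, SE 0.18, edgeR adjusted p = 0.000799). SLC27A5, which activates bile acids with coenzyme A, rose to 12.1 ± 0.726 CPM in 3D, against 6.49 ± 0.350 CPM in 2D, and CYP8B1, the sterol hydroxylase of cholic acid synthesis, to 4.71 ± 0.390 CPM in 3D, against 2.74 ± 0.407 CPM in 2D (SD, n = 3 each; both called). CYP8B1 lost its call without any of 2D replicates 1 to 3 or 3D replicates 1 and 2 (edgeR adjusted p from 0.0530 to 0.126). With length and GC content corrected, 2 genes of this list were called lower.

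Of 21 liver transcription factors and nuclear receptors, all tested, 4 rose and 8 fell, beside 36.6% called over all genes tested, and the median difference was −0.43 on the log2 scale. NR1H4, the bile acid receptor FXR, which is known to induce both SLC51 subunits, fell to 30.7, 51.4 and 57.7 CPM in 3D, against 71.4, 77.8 and 78.7 CPM in 2D (log2 −0.70, SE 0.20, edgeR adjusted p = 0.0182). The groups did not overlap. NR0B2, the repressor SHP, which is a target of FXR, was at 37.6, 31.5 and 72.4 CPM in 3D, against 81.6, 96.5 and 66.0 CPM in 2D (edgeR adjusted p = 0.0704). It was called lower without 3D replicate 3 (log2 −1.24, edgeR adjusted p = 0.00151), by DESeq2 (adjusted p = 0.00832) and by limma-voom (adjusted p = 0.0480). NR0B2 was also called lower after the correction for transcript length and GC content (log2 −1.18, edgeR adjusted p = 0.0164). The same held with the replicate block added to that correction (0.0395) and with protein-coding genes only (0.0493). It was not called without any other single library (edgeR adjusted p from 0.0772 to 0.224) or without 2D replicate 2 and 3D replicate 1 together (log2 −0.52, edgeR adjusted p = 0.338). Nor was it called with the replicate block alone (edgeR adjusted p = 0.153) or under other scalings and filters (0.0648 to 0.0971).

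HNF4A, a hepatocyte regulator of many of these carriers, was not called, at a log2 fold change of −0.12 (95% interval −0.39 to 0.14), and its sign flipped with length and GC content corrected. Among called genes, VDR, the vitamin D receptor, rose to 1.83 ± 0.134 CPM in 3D, against 0.193 ± 0.121 CPM in 2D (SD, n = 3 each). Its 2D counts were 2, 2 and 6, in part under the floor of 3, so no fold is given. CEBPA, a factor of differentiated hepatocytes, rose to 218.3, 216.8 and 201.4 CPM in 3D, against 105.1, 135.9 and 134.9 CPM in 2D (log2 0.76, SE 0.13, edgeR adjusted p = 0.00118), or log2 0.49 after the correction for transcript length and GC content. NR1I2, the xenobiotic receptor PXR, was at 25.2, 18.9 and 20.6 CPM in 3D, against 8.95, 14.7 and 12.3 CPM in 2D (called higher). The largest decreases were those of PPARGC1A, a coactivator of fasting genes, at log2 −2.32 (SE 0.17), CEBPB, an inducible liver factor, at −1.95 (SE 0.25), and AHR, the receptor for aromatic hydrocarbons, at −1.09 (SE 0.12). After the correction for transcript length and GC content these were −1.95, −2.32 and −0.64 in the same order of genes.

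**Figure D5:**
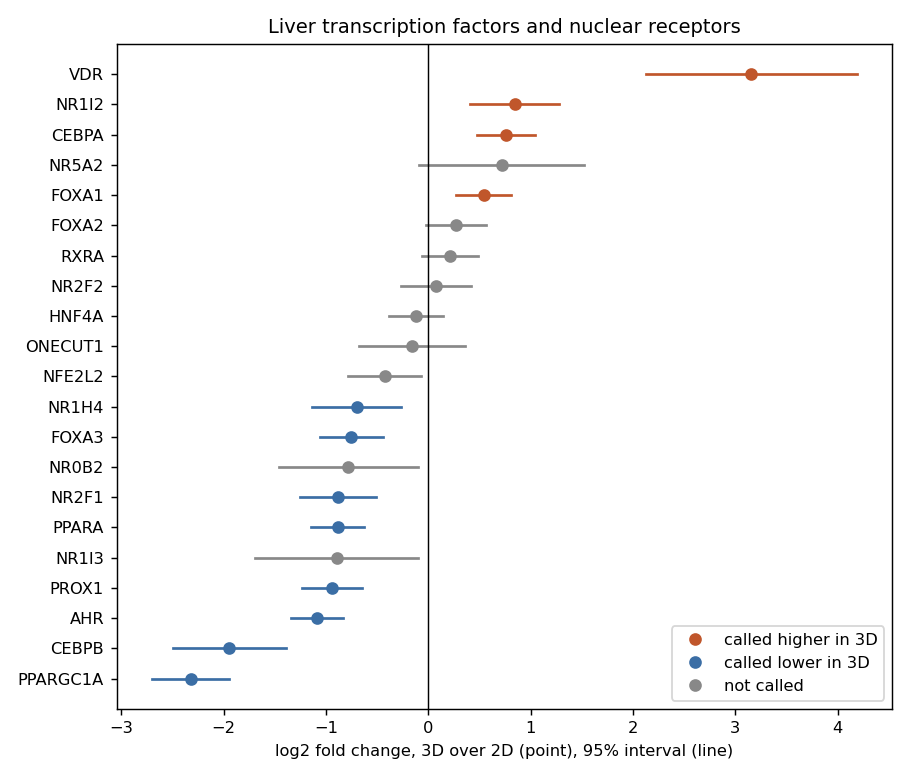
Log2 fold change of 3D over 2D (points) with its 95% interval (lines, from the edgeR fit) for 21 liver transcription factors and nuclear receptors; colours give the call. VDR, with 2 to 6 counts per 2D library, is at the top and PPARGC1A at the bottom, and the interval of HNF4A includes 0.

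Of 5 tested scaffold proteins, which anchor carriers at the membrane, 2 rose and 0 fell, beside 19.0% higher and 17.6% lower over all genes tested. This list, too, was chosen with earlier results of these data known, so no excess is read from the count. The number that rose was 1 or 2 when single libraries were left out. SLC9A3R2, a PDZ-domain adaptor, rose to 56.4 ± 12.9 CPM in 3D, against 28.9 ± 3.56 CPM in 2D (edgeR adjusted p = 0.00144), at log2 0.96, or 0.59 after the correction for transcript length and GC content. PDZK1, which binds the tails of several carriers, rose to 32.2 ± 1.25 CPM in 3D, against 24.4 ± 3.19 CPM in 2D (edgeR adjusted p = 0.0442); this call was lost without 2D replicate 1 (0.142), 2D replicate 2 (0.204), 3D replicate 2 (0.0760) or 3D replicate 3 (0.104).

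The genes whose profile over the 6 libraries lay nearest to that of SLC22A7, by Euclidean distance of centred log2 CPM, were CYP1A1, SLC28A1, AGPAT2, RP11-513I15.6 and HOXC12, at distances of 0.901 to 1.22. CYP1A1, which oxidises aromatic hydrocarbons, stood at 51.8, 37.2 and 26.3 CPM in 3D, against 2.00, 1.76 and 3.11 CPM in 2D. SLC28A1, a concentrative nucleoside carrier, stood at 4.36, 4.14 and 3.23 CPM in 3D, against 0, 0.121 and 0.333 CPM in 2D. Its 2D values lie near or under the floor of 3 counts. AGPAT2, an acyltransferase of glycerolipid synthesis, stood at 56.7, 33.0 and 41.4 CPM in 3D, against 1.38, 3.39 and 2.55 CPM in 2D. RP11-513I15.6, a processed transcript, averaged 26.9 ± 9.35 CPM in 3D, against 1.86 ± 0.0725 CPM in 2D (SD, n = 3 each). HOXC12, a homeobox factor, had 7.14, 5.17 and 3.59 CPM in 3D and 0 counts in every 2D library. The likeness rests on a difference between groups of 3 libraries each, and the genes are listed as a description.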

How the data were processed

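Messenger RNA of 6 HepG2 samples was analysed, grouped by their titles. The authors deposited one table of estimated counts, unscaled. The submitters' processing notes name hg38, Partek and STAR 2.4.1d; the sources used here do not state annotation release, counting settings or strand handling. Of all values 61.7% were whole numbers (tolerance 0), and the lowest gene total was 10. Table coordinates are given as deposited.

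Rounded counts went into the quasi-likelihood test of edgeR 4.0.16 under R 4.3.3 (robust fit; TMM scaling; filterByExpr). Culture was the single model term, and p-values were Benjamini-Hochberg adjusted over 15314 genes. Standard errors derive from the F statistic, and 95% intervals from its degrees of freedom. Levels are TMM-scaled CPM. Lists are described by counts and medians. Named genes were all carriers, a few fixed regulators and carriers, up to 3 called genes per direction and list at 1 CPM or more, and the 5 nearest to SLC22A7. The carriers and lists were chosen with earlier results of these data known. CRIP3 and PCYT1A are named for their overlap. Alternatives used DESeq2 1.42.0, limma 3.58.1, other scalings and filters, the replicate number as a block, left-out libraries, and a loess correction (span 0.5) using GENCODE release 29 lengths and GC content, known for 88.5% of tested genes. No replicate pair agreed within sampling noise (chi-square per degree of freedom 10.3 to 26.7). Some listed genes are not reported here and were left out of the list counts.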

Additional observations from a re-analysis of the deposited data

How the results depend on the processing

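SLC22A7, SLC22A9, SLC51A and SLC47A1 kept their direction and their side of the threshold under every alternative run, over log2 ranges of 4.02 to 4.79, −1.60 to −1.17, 1.62 to 2.08 and 0.12 to 0.30. SLCO2B1 (−0.53 to −0.39) and SLC22A3 (−0.60 to −0.44 with 1 library left out, and −0.38 without 2D replicate 2 and 3D replicate 1, not called) kept their direction. Leaving out single libraries gave 1 to 3 carriers lower, 1 to 2 relatives higher, 0 to 1 export pumps higher, 3 to 4 bile acid synthesis genes higher and 0 to 1 lower, 1 to 2 scaffolds higher and 0 to 1 lower, and 1938 to 2817 of all genes higher. Without 2D replicate 2 and 3D replicate 1 together, 0 relatives, 0 export pumps, 3 bile acid synthesis genes and 1 scaffold were higher. With length and GC content corrected, 0 relatives rose and 5 fell, and 2 bile acid synthesis genes fell; with the replicate block added to this correction, 0 relatives rose and 2 bile acid synthesis genes fell. Over 29 other named genes, 477 of 521 alternative values kept direction and call, 35 lost the call, 7 gained one and 2 changed sign. DESeq2 called 1 relative higher, and the fit without a filter 1 scaffold. HNF4A, uncalled throughout, changed sign under the correction (0.075, and 0.067 with the block). The causes were not tested. Samples with the same number did not deviate together (correlations 0.053, −0.0092 and −0.078). No pairing by number was therefore detected, but these correlations cannot exclude a shared run, and the labels state none. The replicate block left the same number of carriers called in each direction and gave 1 relative, 0 export pumps and 1 scaffold higher. Summing the paralogous SLCO1B genes was not run, because only SLCO1B3 was analysed. A carrier under about 0.3 CPM could not be measured at this depth.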
